A study of Mus musculus with 12 samples.

Results

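The libraries described here measured what 24 h of transient mDUX expression did to the RNA of cultured mouse embryonic stem cells, which are pluripotent and derive from the early embryo. They are 4 of the 12 samples of the series, and all 29264 rows of their count table were taken, 27776 genes and 1488 repeat families, without any selection by value. The transient mDux group is 2 libraries of stem cells given a codon-altered mDux transgene with no HA tag, and the transient control group is 2 libraries of the same cells given a control. Both groups grew on gelatin in serum, leukemia inhibitory factor and 2i (the kinase inhibitors CHIR99021 and PD0325901), and both were sequenced as 50 bp single-end reads from poly(A) RNA. The sample labels also list the mDuxCA transgene for the controls, but the titles and the table columns name them as controls, which is how they were grouped. A second system is used for comparison, an unsorted line grown from drug-selected single-cell clones that carries a doxycycline-inducible, HA-tagged form of the transgene and a MERVL::EGFP reporter, with doxycycline for 24 h or without it, 2 libraries each. The labels do not say whether libraries within a group come from separate cultures, so p-values reflect only how these libraries vary, which may be technical variation.

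Dux encodes a transcription factor with a pair of homeodomains that is switched on briefly when the mouse embryo starts to transcribe its own genome. Its known targets include cleavage-stage gene families such as Zscan4, Usp17l and Tcstv, and the endogenous retrovirus MERVL with its long terminal repeat MT2_Mm. A small fraction of cultured embryonic stem cells enters a state with the same transcripts, and such cells are called 2-cell-like. In bulk RNA, more cells that express a gene and more RNA of it per cell cannot be told apart, and this holds for every level given here.

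Levels are given as CPM, reads per 1000000 gene reads of a library after TMM scaling, and the 2 libraries of a group are called A and B. The gene reads came to 16101509 and 20506060 in control A and B, and to 18836741 and 18126506 in mDux A and B. Changes are log2 fold changes, mDux over control, with a standard error from edgeR's quasi-likelihood test, and a feature was called where its Benjamini-Hochberg adjusted p was under 0.05. All 10 embryonic stem cell markers examined were present in all 4 libraries and none was called changed with all 4 libraries. The lowest of them, Utf1, stood at 45.9 and 42.8 CPM in the controls and 45.8 and 39.6 CPM with mDux, and the highest, Tfcp2l1, at 1070 and 1050 against 1080 and 989 CPM.

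Control A stood apart from the other 3 libraries. Ribosomal RNA repeats took 2.35% of its counted reads, against 0.0767% in control B, 0.0628% in mDux A and 0.0583% in mDux B. A few genes, named after their values were seen, followed that library: Lars2 was at 1210 CPM in control A against 66.7, 27.1 and 27.5 CPM in control B, mDux A and mDux B. Over genes with a mean of 20 reads or more, the log2 ratio of the control libraries had an SD of 0.33, against 0.19 for the mDux libraries. Results that rest on control A are therefore also given without it.

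Some sequences help to read what follows. In the RefSeq promoter table (GRCm38.p6), which runs from 250 bases before to 50 after an annotated start, 175 of the 319 genes that rose had an entry. The stretches below lie upstream of the annotated starts, run 5′ to 3′ on the gene's strand, and were picked, with the motifs, after the values were seen. They show how alike the promoters of a cleavage-stage family can be. In the Zscan4 and Usp17l stretches the capitals mark TGATTCAA and TATAAA.
Zscan4d, chr7:11166208-11166344, minus strand: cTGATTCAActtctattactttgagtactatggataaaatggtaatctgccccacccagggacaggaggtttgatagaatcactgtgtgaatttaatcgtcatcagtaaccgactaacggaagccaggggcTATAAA
Zscan4c, chr7:11005560-11005696, plus strand: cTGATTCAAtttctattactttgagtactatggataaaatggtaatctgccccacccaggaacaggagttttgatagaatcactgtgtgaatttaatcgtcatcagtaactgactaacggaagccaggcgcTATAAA
Zscan4f, chr7:11397753-11397889, plus strand: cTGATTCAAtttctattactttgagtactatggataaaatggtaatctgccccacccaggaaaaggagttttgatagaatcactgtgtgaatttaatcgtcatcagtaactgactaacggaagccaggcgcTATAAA
Zscan4b, chr7:10905076-10905212, minus strand: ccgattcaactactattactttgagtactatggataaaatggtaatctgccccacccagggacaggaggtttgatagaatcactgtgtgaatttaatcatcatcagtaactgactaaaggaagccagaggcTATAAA
Usp17lb, chr7:104842609-104842745, minus strand: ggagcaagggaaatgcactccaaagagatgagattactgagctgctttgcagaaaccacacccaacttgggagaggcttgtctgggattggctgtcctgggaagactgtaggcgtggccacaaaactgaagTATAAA
Usp17lc, chr7:103416477-103416613, plus strand: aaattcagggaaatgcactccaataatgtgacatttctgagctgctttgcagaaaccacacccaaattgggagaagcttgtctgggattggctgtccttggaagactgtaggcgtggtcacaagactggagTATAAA

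The next stretches show 2 genes of the Tcstv region and the endogenous Duxf3 gene, with GATTNAATC and TGATTCAA in capitals, and Zfp352, whose promoter holds 9 copies of TAATCC in 192 bases, in capitals.
Gm21761, chr13:119913513-119913649, minus strand: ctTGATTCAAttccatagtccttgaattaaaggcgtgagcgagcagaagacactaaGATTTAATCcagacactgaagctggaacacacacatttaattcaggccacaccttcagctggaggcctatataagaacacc
AF067061, chr13:120262914-120263050, plus strand: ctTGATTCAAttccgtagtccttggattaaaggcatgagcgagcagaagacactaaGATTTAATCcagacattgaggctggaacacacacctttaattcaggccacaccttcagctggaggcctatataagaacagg
Duxf3, chr10:58233194-58233254, minus strand: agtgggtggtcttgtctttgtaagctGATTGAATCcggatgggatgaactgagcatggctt
Zfp352, chr4:90218590-90218781, plus strand: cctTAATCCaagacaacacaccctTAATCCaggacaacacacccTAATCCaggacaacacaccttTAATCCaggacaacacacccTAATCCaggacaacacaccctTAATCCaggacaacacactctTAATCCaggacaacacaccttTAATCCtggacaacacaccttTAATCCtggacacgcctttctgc

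Over the 137 bases shown, Zscan4c and Zscan4f were 99.3% identical, Zscan4d was 96.4% identical to Zscan4c and 95.6% to Zscan4b, Gm21761 was 94.2% identical to AF067061, and Usp17lb was 87.6% identical to Usp17lc. These stretches lie upstream of the annotated starts, and the transcripts, which give the reads, were not compared. If the transcripts are as alike, reads of 50 bp may match several copies. The sources used here do not say how the authors treated such reads, so counts of single family members are uncertain. Searched on both strands of the 300-base windows, GATTNAATC lay in 5 of the 175 promoters of raised genes (2.86%), those of AF067061, Duxf3, Gm12724, Gm21761 and Pemt. It lay in 0.201% of the 10467 promoters of tested genes and in 0.281% of all 27025. TGATTCAA lay in 2.86%, 0.411% and 0.622% of the same sets, TAATCC in 14.9%, 5.64% and 7.16%, and TATAAA in 17.1%, 6.9% and 14.2%. The 5 raised genes with TGATTCAA are Zscan4d, Zscan4c, Zscan4f, Gm21761 and AF067061. The promoters of the Zscan4 genes, and those of Gm21761 and AF067061, are near copies and were each counted. Gm21761 and AF067061 are likewise both counted for GATTNAATC. All of these values are counts of letters in a window and were not tested.

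Of 14979 genes tested, 319 rose and 1 fell, and of 1184 repeat families tested, 51 rose and none fell. As a background, 2.13% of genes tested were called higher and 0.00668% lower, and 4.31% of repeat families were called higher and 0.0% lower. An unadjusted p under 0.05 was reached by 974 genes, 262 of them lower, and by 196 repeat families, 4 of them lower. DESeq2 called 1 repeat family and 2 genes lower. The other 12797 genes and 304 repeat families of the table had too few reads to be tested. The number of calls moved with the libraries used: without control A 522 genes were called higher and 92 lower, without control B 1185 and 1404, without mDux A 275 and 0, and without mDux B 247 and 0. All 319 genes had both mDux libraries above both controls, but the calling largely fixes this, and the share over all genes was not computed. All 319 kept a positive change without control A and without control B. That also was largely fixed, since both mDux libraries of each gene were above both controls. With 1 control left the spread comes from the mDux pair alone, so a call is hard to lose there. Some of the calls were lost without mDux A, and some without mDux B.

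Most of the raised genes had low levels in the controls, under 10 CPM for 262 of the 319, though only 2 had no reads in both. Their median level was 1.4 CPM in the controls and 8.78 CPM with mDux, against a median of 17.3 CPM in the controls for all genes tested. The median log2 fold change was 2.85, with quartiles at 2.07 and 3.3, and 227 of the 319 genes (71.2%) lay between 2 and 4. At least a 4-fold rise was seen for 245 genes, at least 8-fold for 129 and at least 16-fold for 18. By control level, the median log2 fold change of the raised genes was 3.17 under 1 CPM in the controls (135 genes), 2.74 from 1 to 10 CPM (127), 1.23 from 10 to 100 CPM (50) and 0.87 at 100 CPM or more (7). The share of genes called higher went from 7.5% in the lowest of these classes to 2.86%, 0.805% and 0.278%. These values describe the calls and show no trend of their own, since a gene with few control reads passes the filter largely through its mDux reads and needs a large fold to be called. Together the 319 genes took 0.391% and 0.401% of the gene reads in control A and B and 1.19% and 1.21% in mDux A and B.

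**Figure D1:**
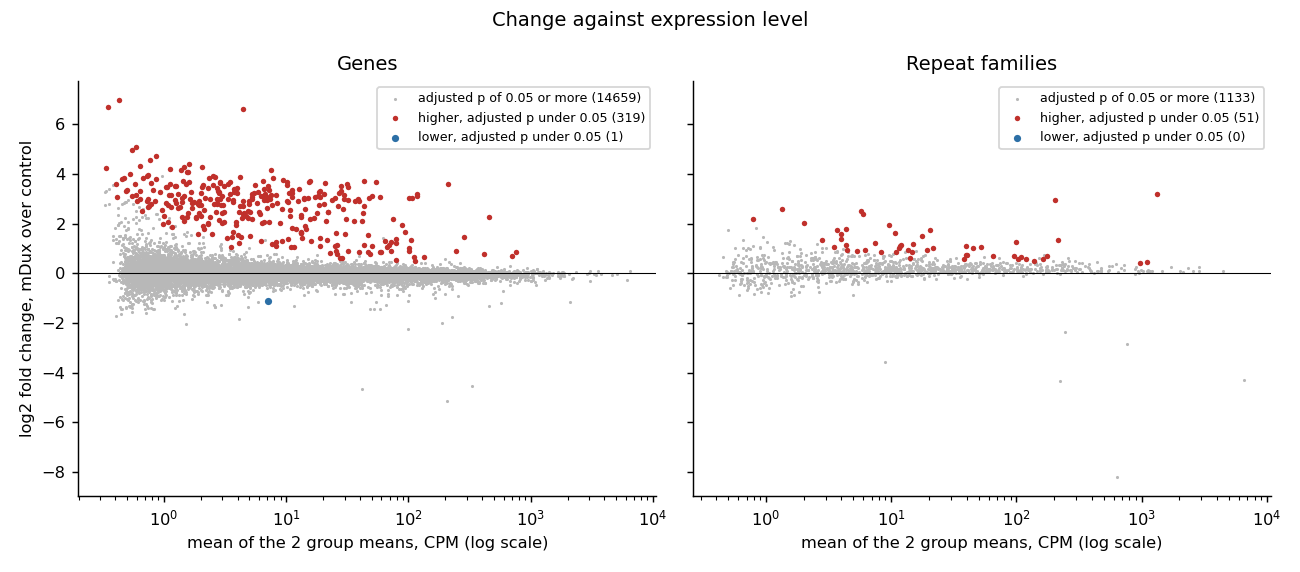
Log2 fold change (mDux over control) of each tested gene (left) and repeat family (right) against the mean of the 2 group means in CPM on a log axis; red and blue points are features called higher and lower. The 319 raised genes form a band above the other genes, with a median of 2.85, and the isolated grey points far below 0 include Lars2 and ribosomal repeats, which were high in control A.

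The Zscan4 genes, SCAN-domain zinc-finger genes of the late 2-cell embryo, rose as a group: all 5 tested members were called higher, with a median log2 fold change of 3.10 against 0.0 for all genes tested, and the count was 5 without any 1 of the 4 libraries. Zscan4d stood at 32.3 and 31.7 CPM in the controls and at 382 and 392 CPM with mDux, on 502 to 7299 reads. Its libraries agree closely within each group and the groups lie far apart. Zscan4f rose from 27.8 and 21.8 CPM to 204 and 220 CPM (log2 fold change 3.10 ± 0.14, adjusted p = 2.9e-05 by edgeR's quasi-likelihood test), and Zscan4c from 22.9 and 20.9 to 169 and 193 CPM. The 2 remaining members were lower throughout, Zscan4e at a mean of 18.1 ± 1.36 CPM (SD, n = 2) and Zscan4b at 9.9 and 13.3 CPM with mDux. Per kilobase of the deposited length, the order with mDux was Zscan4d (169 CPM per kb), Zscan4f (87.2), Zscan4c (84.7), Zscan4e (10.4) and Zscan4b (6.62), and Zscan4f and Zscan4c did not differ beyond their spread. All 5 lie within chr7:10900740-11402318 (GRCm38), a stretch where every gene of the table was tested and called.

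The Usp17l genes encode deubiquitinating enzymes, and each of the 5 tested members rose (median log2 fold change 3.27). Usp17lb stood at 7.71 and 8.03 CPM in the controls and at 99.3 and 103 CPM with mDux. Usp17le went from 4.05 and 2.31 to 35.6 and 41.9 CPM, and Usp17lc from 4.76 and 3.37 to 35.8 and 37.8 CPM. In both genes the groups lie far apart and do not overlap. Usp17la and Usp17ld ended at 10.4 to 12.8 CPM. Per kilobase, Usp17lb led with 64.8 CPM per kb, followed by Usp17le with 23.8 and Usp17lc with 15.

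The Eif1a-like list, named for relatives of the translation initiation factor EIF1A that are typical of 2-cell embryos, gave 10 called members of 11 tested and a median of 3.00. Gm8300 stood at 25.6 and 21.2 CPM in the controls and at 185 and 197 CPM with mDux (log2 fold change 3.03 ± 0.12, adjusted p = 2.9e-05). Gm5039 rose from 5.14 and 5.15 to 50.0 and 48.2 CPM, and Gm5662 from 8.68 and 8.37 to 60.5 and 67.6 CPM. The member that did not pass was B020031M17Rik, with a log2 fold change of 2.38. It lies on chromosome 13, and BC080695 and B020004J07Rik, both raised, lie on chromosome 4. The relation of each listed gene to EIF1A was not tested, so the list may be wider than its name. Others belong to a run on chromosome 12, from 87514316 to 88324026, where all 10 genes tested, of 15 present, rose by 2.88 to 3.44 on the log2 scale.

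Genes of the Tcstv cluster on chromosome 13, named for their variable expression in 2-cell embryos, rose in 6 of 8 tested cases, with a median of 3.29. Tcstv3 stood at 2.06 and 2.26 CPM in the controls and at 28.3 and 28.4 CPM with mDux. BC147527 rose from 2.31 and 2.07 to 26.3 and 32.0 CPM (log2 fold change 3.74 ± 0.19, adjusted p = 4e-05), and Gm20767 from 3.02 and 3.80 to 34.1 CPM in both mDux libraries. Gm16368 and Tcstv1 had log2 fold changes of 2.38 and 2.97 and did not pass with all 4 libraries, and all 8 members passed without control A or without control B. The same region holds Gm21761, which is on none of the lists. It stood at 21.1 and 25.3 CPM in the controls and at 212 and 213 CPM with mDux. At 412 CPM per kb over a deposited length of 516 bases it was above every member of the families just described, and Zscan4d came next to it only at 169 CPM per kb. The Tdpoz genes, which encode proteins with TRAF and BTB/POZ domains, rose in 3 of 3 tested cases, with Tdpoz4 at 2.06 and 1.88 CPM in the controls and 19.8 and 21.2 CPM with mDux, Tdpoz3 at 16.2 and 15.3 CPM and Tdpoz1 at 2.31 and 1.86 CPM with mDux.

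**Figure D2:**
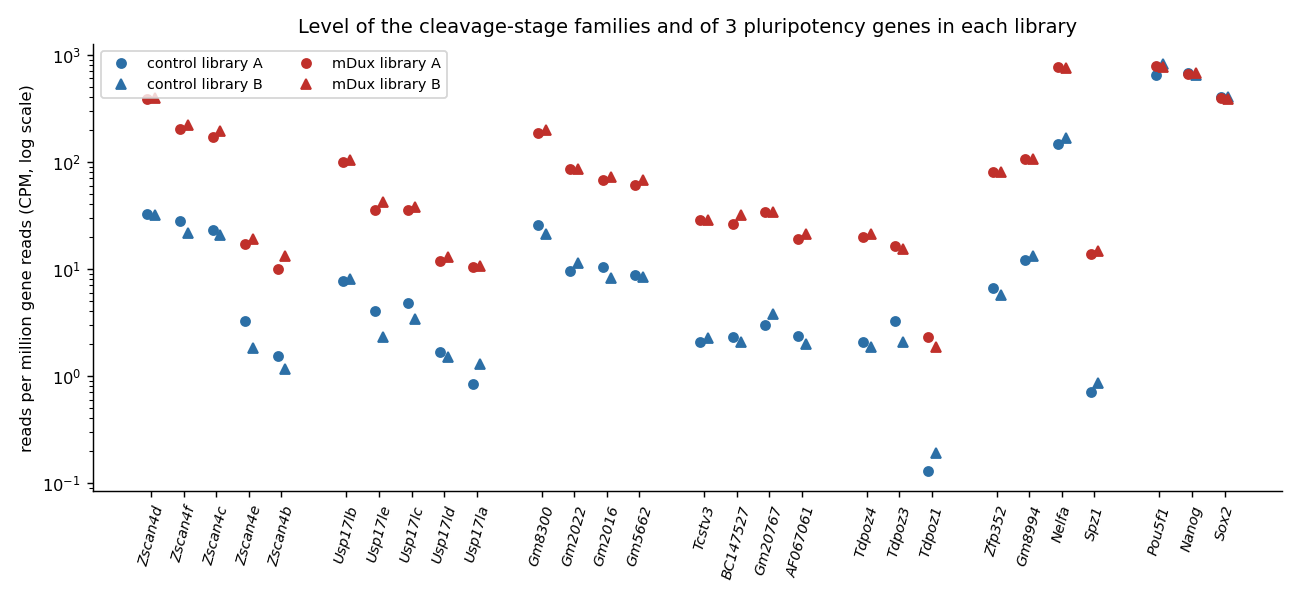
CPM on a log axis in each library for genes of the Zscan4, Usp17l, Eif1a-like, Tcstv and Tdpoz families, 4 other cleavage-stage genes and 3 pluripotency genes; blue symbols are the controls, red the mDux libraries, circles library A and triangles library B. In each family both mDux libraries sit above both controls, as for Zscan4d at 382 and 392 against 32.3 and 31.7 CPM. The family genes shown were all called, which largely fixes this. Pou5f1 and Nanog overlap, while Sox2 is slightly lower with mDux, at 392 and 387 against 404 and 405 CPM, and was not called.

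Some raised genes were neighbours. Of 305 raised genes with coordinates (GENCODE, GRCm38), 59 lay in 9 runs of at least 4 raised genes with starts no more than 500000 bp apart. In 4 runs every tested gene rose: the Zscan4 run, the chromosome 12 run, 8 of 8 genes on chromosome 3 from 93669333 to 94266784 around the Tdpoz genes, and 6 of 6 on chromosome 11 from 94756976 to 94846092 around Tmem92. The run on chromosome 1 from 84992690 to 85645037 held 6 raised genes of 8 tested, among them Sp110 and Sp140, genes of the Sp100 family of nuclear body proteins. Sp110 rose from 6.04 and 4.14 to 49.7 and 51.3 CPM (log2 fold change 3.33 ± 0.18), and Sp140 from 1.03 and 1.88 to 11.4 and 11.8 CPM. On chromosome 4, from 143551700 to 144364419, 8 of 10 tested genes rose. They include Pramef6, at 0.321 and 0.433 CPM in the controls and 3.98 and 3.29 CPM with mDux, and Pramef25, at 1.35 and 1.64 against 14.7 and 12.1 CPM, members of the PRAME family of leucine-rich repeat genes. These are the 2 called of 9 tested genes with a Pramel or Pramef symbol, whose median log2 fold change was 0.45. The Tcstv run on chromosome 13, from 119827961 to 120318178, held 8 raised genes of 10 tested. The 2 remaining runs were sparser, with 4 raised of 9 tested each, on chromosome 3 from 137621612 to 138233382 and on chromosome 4 from 101403081 to 101943183. How often genes called at random would form such runs was not computed. The runs were delimited by raised genes, and a low gene passes the filter largely through its mDux reads. With untested genes, the chromosome 12 run held 15 genes, the chromosome 3 run around the Tdpoz genes 11 and the Tcstv run 13. The chromosome 1 run held 20 and that with Pramef6 held 22. Shares of tested genes are thus not shares of all genes there.

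Outside these families, 15 of 30 tested genes of a list of other 2-cell genes rose and none fell, with a median of 0.89. The count was 13 without mDux A and 12 without mDux B. Zfp352, a zinc-finger gene of the 2-cell embryo, stood at 6.62 and 5.67 CPM in the controls and at 79.6 and 81 CPM with mDux. Gm8994 rose from 12 and 13.1 CPM to 105 CPM in both mDux libraries. Nelfa, which encodes a subunit of the negative elongation factor that pauses RNA polymerase II, rose from 148 and 166 to 764 and 748 CPM (log2 fold change 2.26 ± 0.10, adjusted p = 2.9e-05). It had the highest level with mDux among genes that rose at least 4-fold. Spz1, which encodes a leucine-zipper transcription factor known from the testis, rose from 0.707 and 0.866 to 13.9 and 14.6 CPM. Of the members that did not pass, Trim43a had a log2 fold change of 1.0, Snai1 0.89 and Kdm5b 0.05.

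The largest changes at 5 CPM or more with mDux were those of Cspg4, Spz1, Gm5286, Cpb2 and Cml2. Cspg4, a membrane proteoglycan gene, had 2 and 1 reads in the controls and 182 and 144 reads with mDux, a log2 fold change of 6.61 ± 0.38 (adjusted p = 6.7e-05) far above the next gene's 4.15. Gm5286 rose from 0.579 and 0.481 to 8.12 and 7.39 CPM, Cpb2, a plasma carboxypeptidase gene, from 1.09 and 0.914 to 14.8 and 14.2 CPM, and Cml2, a camello-like acetyltransferase gene, from 0.964 and 1.54 to 18 and 17 CPM. Among the 25 genes of this kind the smallest log2 fold change was 3.44, that of Speer4cos. Trim75, a tripartite motif gene, rose from 1.09 and 1.15 to 13.6 and 12.5 CPM and was the 1 of 41 Trim genes, Trim28 apart, to be called, while 3 were called higher and 5 lower without control B. Of 339 tested genes with a Zfp symbol 6 rose and none fell, and without control B 21 were called higher and 22 lower. Without control A, mDux A or mDux B 7, 4 or 3 were called higher and 1, 0 or 0 lower. Gm11525 had no reads in the controls and 14 and 18 with mDux, at least 10.4-fold higher against a floor of 3 reads over the control group. Its call was kept without mDux A (adjusted p = 0.028), and it was not tested without mDux B.

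Raised genes with high control levels had smaller changes, but low genes need a large fold to be called, so this is no trend. Fbxo15, an F-box gene expressed in pluripotent cells, went from 544 and 531 to 953 and 1010 CPM (log2 fold change 0.87 ± 0.09), Dst, a cytoskeletal linker gene, from 532 and 521 to 907 and 827 CPM, and Aqr, a spliceosomal helicase gene, from 323 and 293 to 520 and 538 CPM. All 3 groups of values are separate, but the differences are close to the limit of 4 libraries. Without mDux A and without mDux B the adjusted p of Dst was 0.267 and 0.0755, that of Aqr 0.0793 and 0.113, and that of Fbxo15 0.0288 and 0.0548. Cwc22, a splicing factor gene, rose from 163 and 138 to 401 and 437 CPM (1.48 ± 0.12), Gpbp1l1 from 174 and 172 to 309 and 331 CPM (0.89 ± 0.09), Scamp1, a membrane trafficking gene, from 37.7 and 36.2 to 136 and 147 CPM (1.94 ± 0.10), Os9, a gene of endoplasmic reticulum protein degradation, from 40.6 and 48.6 to 139 and 142 CPM (1.65 ± 0.12), and Dennd4c, a Rab exchange factor gene, from 61.6 and 57.1 to 150 and 154 CPM (1.36 ± 0.10). These 5 were called whichever library was left out. Prex2, a Rac exchange factor gene, had 102 and 105 against 167 and 160 CPM, with an adjusted p of 0.00744 that became 0.249 and 0.147 without mDux A and mDux B. The 15 raised genes with the highest levels held 47.6% of the summed mDux level of all 319.

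Protein-coding genes made up 221 of the 319 raised genes (69.3%) and 87.8% of the genes tested. By biotype, 1.68% of protein-coding genes rose, 3.85% of long noncoding genes (30 of 780), 5.11% of processed pseudogenes (30 of 587) and 24.7% of unprocessed pseudogenes (20 of 81). Genes known by a Gm number alone rose in 98 of 1198 cases (8.18%). The raised pseudogenes with the highest levels were Gm12183, at 28.2 and 26 against 121 and 123 CPM, Gm13228, at 14.5 and 11.9 against 64.9 and 77.6 CPM, and Gm5117, at 6.69 and 3.9 against 58.0 and 59.4 CPM, all processed. Among unprocessed pseudogenes, Gm16026 rose from 3.73 and 5.67 to 57.6 and 57.9 CPM. Long noncoding examples are Gm27167, at 5.98 and 4.47 against 36.3 and 35.3 CPM, and AU019990, at 2.44 and 1.59 against 13.1 and 13.6 CPM. Obox4 pseudogenes, copies of an oocyte homeobox gene, were 3 of the 4 Obox rows tested of 30 in the table, with Obox4-ps33 at 2.76 and 2.02 against 16.1 and 24.0 CPM. Of 431 olfactory receptor genes only 9 had enough reads to be tested and 5 of these rose, with Olfr881 at 0.129 and 0.144 against 3.25 and 2.3 CPM. The olfactory count was 7 without control A or without control B, 4 without mDux A and 3 without mDux B. A low gene passes the filter only if some libraries are high, so these counts, and the shares by biotype and of Gm-numbered genes above, are not shares of whole families or classes. The raised processed and unprocessed pseudogenes had median control levels of 0.819 and 0.995 CPM.

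The endogenous Duxf3 gene was called higher at a low level. It had 7 and 12 reads in the controls and 37 and 59 with mDux, or 0.45 and 0.577 against 1.94 and 3.23 CPM. The mDux libraries differ from each other more than the controls do. The log2 fold change was 2.29 ± 0.39 with an adjusted p of 0.0242, which became 0.00524 without mDux A and 0.156 without mDux B. The transgene is codon-altered, and whether any of its reads were counted on this row was not tested.

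In the pluripotency list 2 of 30 tested members were called, Fbxo15 and Dppa2, with a list median of -0.04. Dppa2, a chromatin regulator known to act upstream of Dux, had a log2 fold change of 0.56 and an adjusted p of 0.0284, which became 0.395 without mDux A and 0.916 without mDux B. Pou5f1 stood at 646 and 813 against 789 and 762 CPM, Nanog at 669 and 644 against 654 and 677 CPM, and Sox2 at 404 and 405 against 392 and 387 CPM, and the log2 fold changes were 0.09, 0.02 and -0.05 and did not pass. Trim28, the corepressor that silences retroelements, had 2950 and 3870 against 3760 and 3510 CPM. Control A was the lowest library for Pou5f1 and Trim28. Without control B, Pou5f1 passed at 0.25 (adjusted p = 0.0108) and Trim28 at 0.29 (0.00125), and the pluripotency list then had 5 members called higher and 3 lower. Of 33 tested genes of retroelement silencing only Zfp809, a zinc-finger repressor of retroviruses, was called (44.0 and 37.9 against 73.4 and 76.8 CPM), and without mDux A or mDux B its adjusted p was 0.0537 or 0.106. Without control B 4 silencing genes were called higher and 3 lower. Setdb1, the histone methyltransferase recruited by TRIM28, had a log2 fold change of 0.16, Dnmt1 -0.11 and Chaf1a, a chromatin assembly subunit, -0.16.

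No member was called among 51 replication-dependent histones (median 0.12), 25 integrated stress response genes (0.04), 25 p53 targets (-0.07), 20 immediate early genes (0.11), 30 cyclin and replication licensing genes (0.01), 21 glycolysis genes (-0.09), 22 germline genes (0.07), 17 genes of innate nucleic-acid sensing (-0.06), 81 cytosolic ribosomal protein genes (0.01) or 20 mitochondrial genes (-0.02). Control A, the library that stood apart, is the only control in the fit without control B. The spread in that fit comes from the mDux pair alone, so its calls are uncertain. Most of these counts changed on leaving out control B. Without it 19 histone genes were called higher and 3 lower, 17 ribosomal protein genes higher and 3 lower, 5 stress response and 4 immediate early genes higher, 2 cyclin and licensing genes higher and 5 lower, 1 glycolysis gene higher and 4 lower, 2 p53 targets higher and 2 lower, 1 germline gene higher and 1 lower, and 7 mitochondrial genes lower. Without control A 4 mitochondrial genes were called higher and 4 ribosomal protein genes lower, and the remaining lists had at most 2 calls in a direction. Without mDux A or mDux B no member of these lists was called. Examples are Cdkn1a, the cell cycle inhibitor induced by p53, with a log2 fold change of -0.54, and Atf4, the transcription factor of the stress response, with 0.03. In the list of cytochrome c and apoptosis genes Cycs, which encodes cytochrome c, rose from 9.96 and 8.22 to 23.1 and 22.2 CPM and was the 1 of 22 called.

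Markers of other cell types were not called in the primitive endoderm (11 tested), trophectoderm (11), primed epiblast (10), neuroectoderm (6) and blood (4) lists. Their summed levels ran from 488 and 471 CPM with mDux to 560 and 530 CPM in the controls for primitive endoderm, and from 113 to 122 CPM over all 4 libraries for trophectoderm. Among 9 tested fibroblast markers Col6a1, a collagen VI gene, was the 1 called, at 0.129 and 0.192 against 1.52 and 1.86 CPM. The fibroblast markers summed to 37.0 and 44.2 CPM in the controls and 48.4 and 41.4 CPM with mDux. In the oocyte list Dppa3 and Nlrp4f were called of 7 tested. Dppa3, a maternal factor protecting DNA methylation, went from 1.29 and 1.20 to 3.20 and 4.22 CPM, a call lost without mDux B (adjusted p = 0.198), and that of Nlrp4f, at 7.65 and 6.68 against 14.6 and 15.3 CPM, was lost without mDux A (0.0653) or mDux B (0.123).

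**Figure D3:**
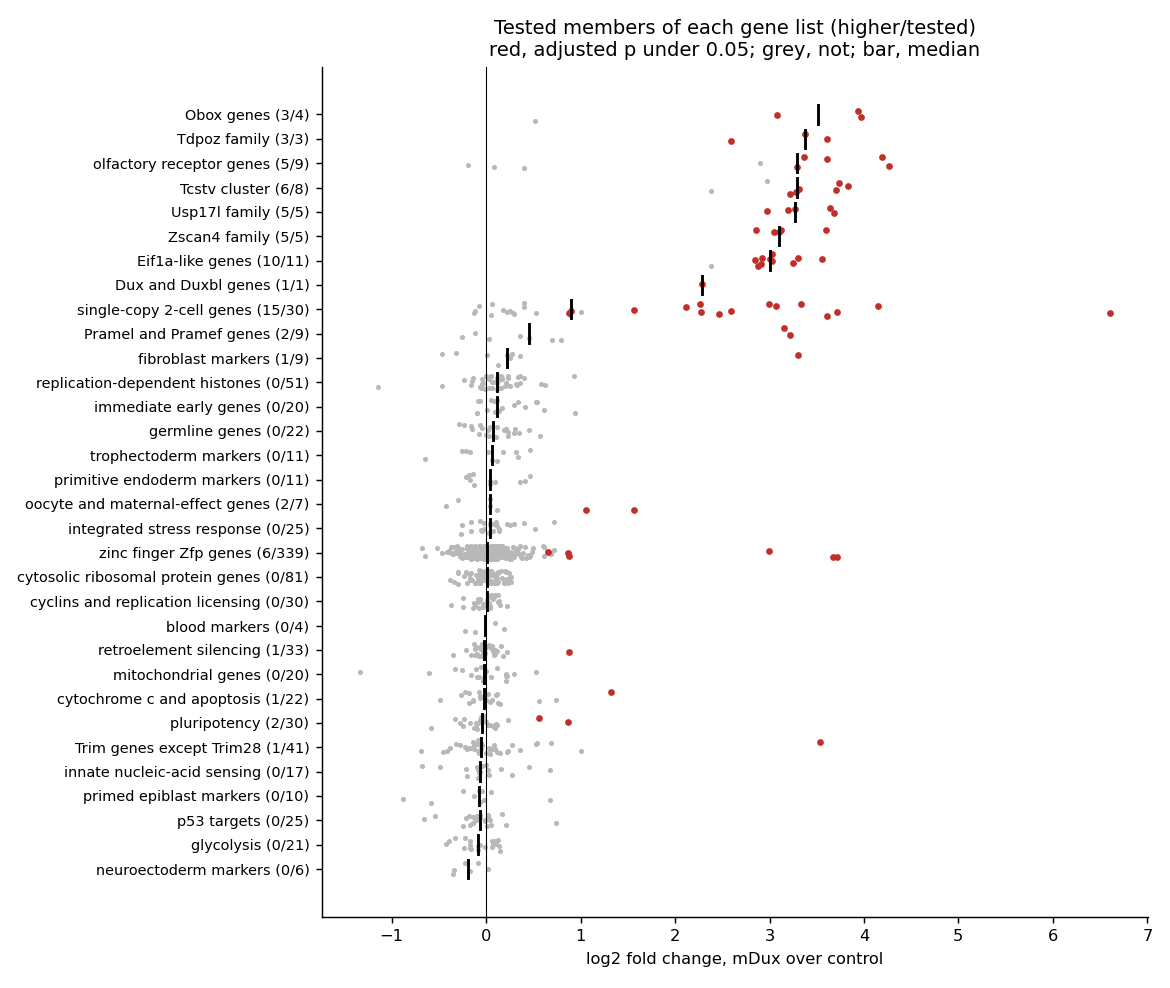
Log2 fold change (mDux over control) of every tested member of each gene list; red points were called higher, grey points were not called, black bars are list medians and the labels give called over tested members. The Zscan4, Usp17l, Tdpoz, Tcstv and Eif1a-like lists have medians from 3.00 to 3.38, the Obox and olfactory receptor lists, of 4 and 9 tested genes, have 3.51 and 3.29, the Dux list is Duxf3 alone at 2.29, the list of other 2-cell genes has 0.89, and the medians of the other lists run from -0.19 to 0.45.

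A single gene fell, Gm22701, annotated as a small RNA gene on chromosome 8, from 9.45 and 9.86 to 4.30 and 4.54 CPM. Its log2 fold change was -1.13 ± 0.17 with an adjusted p of 0.010, which became 0.145 without mDux A and 0.117 without mDux B.

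Among repeat families, those of MERVL rose most. MERVL-int, which holds the internal, protein-coding region, stood at 247 and 274 CPM in the controls and at 2390 and 2400 CPM with mDux (log2 fold change 3.20 ± 0.10). MT2_Mm, its long terminal repeat, stood at 48.8 and 43.7 against 351 and 372 CPM (2.97 ± 0.11). The groups of both families lie far apart. Together they took 0.0257% and 0.0300% of all counted reads in control A and B and 0.254% and 0.256% in mDux A and B. A related internal sequence, MERVL_2A-int, rose from 128 and 118 to 313 and 305 CPM (1.33 ± 0.10), and MT2C_Mm from 35.1 and 32.9 to 68.5 and 71.8 CPM (1.05 ± 0.11). The other MT2 rows of the table were looked up after the data were seen. MT2B1 rose from 145 and 121 to 214 and 225 CPM (0.72 ± 0.11, adjusted p = 0.0112), and its adjusted p became 0.102 without mDux A and 0.168 without mDux B. MT2B2 rose from 88.2 and 80.4 to 133 and 136 CPM (0.67 ± 0.10, adjusted p = 0.00853), and its adjusted p became 0.129 and 0.168. MT2A and MT2B had log2 fold changes of 0.23 ± 0.12 and 0.17 ± 0.09 and did not pass.

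Of the 51 raised families 42 are long terminal repeat elements, 7.23% of the 581 tested. They divide into 9 of 93 ERVL, 7 of 92 ERVL-MaLR, 16 of 267 ERVK and 10 of 103 ERV1 families. RLTR30C_MM (ERV1) rose from 1.93 and 1.54 to 10.0 and 9.69 CPM, SRV_MM-int (ERVK) from 5.85 and 4.71 to 14.8 and 17.6 CPM, ORR1A3-int (ERVL-MaLR) from 62.9 and 52.6 to 134 and 146 CPM, and RLTR14-int (ERV1) from 27.1 and 23.1 to 53.7 and 55.5 CPM. Outside this class X7C_LINE, a CR1 element, rose from 1.67 and 2.07 to 9.01 and 11.0 CPM. The SINE families B2_Mm1a and B2_Mm1t, which had many more reads, moved little, from 946 and 893 to 1270 and 1290 CPM and from 861 and 783 to 1110 and 1120 CPM. Their adjusted p of 0.0245 and 0.0441 became 0.433 and 0.505 without mDux A and 0.488 and 0.528 without mDux B. In all, 29 of the 51 families rose at least 2-fold and 7 at least 4-fold. Repeat rows pool all copies in the genome, so they do not say which copies or host transcripts gave the reads.

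The smaller repeat changes depended on the control library. Over all 1184 families the median log2 fold change was 0.16, with 79.0% of families above 0, against 0.0 and 50.6% for genes. It was 0.37 without control A and -0.01 without control B, and 555 and 97 families were then called higher. Without mDux A or mDux B the count was 20 or 16. A set of 15 families was called whichever library was left out: MERVL-int, MT2_Mm, HY1, RLTR30C_MM, X7C_LINE, MLT2E, RLTR6B_Mm, MER89, RLTR41B, SRV_MM-int, ERVB7_2B-LTR_MM, MERVL_2A-int, ORR1A3-int, RLTR14-int and MT2C_Mm. L1 families show the same dependence, with a median of 0.16 over 127 families that was 0.48 without control A and -0.09 without control B. L1Md_F3, looked up after the data were seen, was at 2570 CPM in control A against 111, 174 and 197 CPM in control B, mDux A and mDux B.

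**Figure D4:**
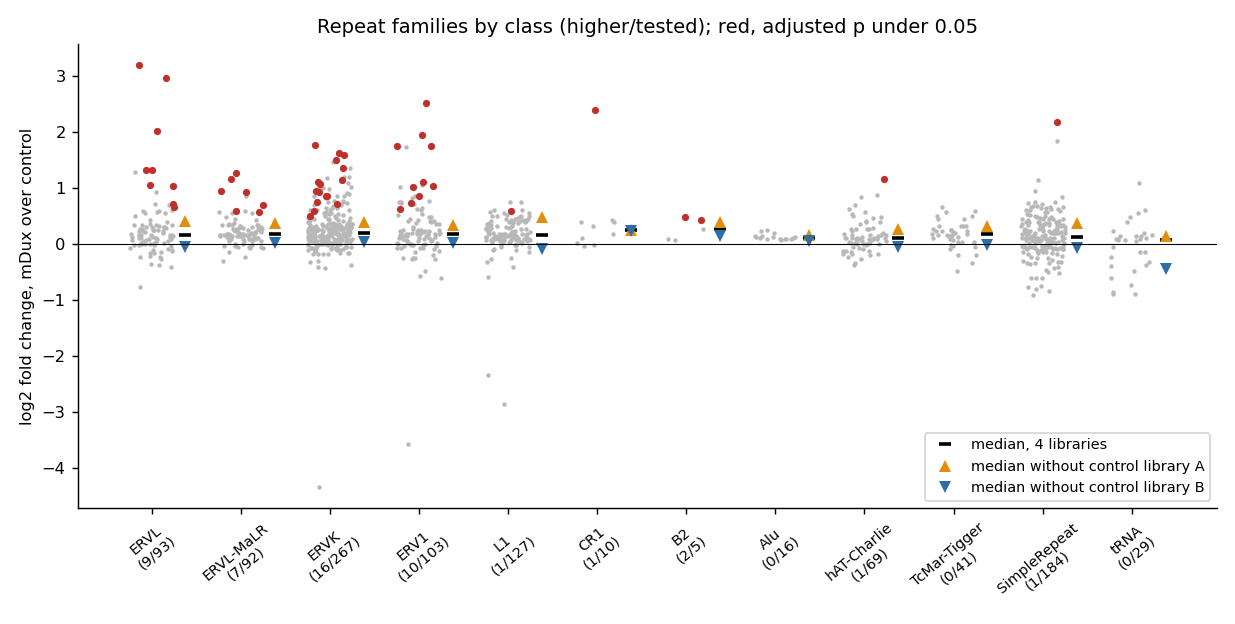
Log2 fold change (mDux over control) of tested repeat families by class; red points were called higher, labels give called over tested families, and the black bar, orange and blue triangles are the class median with 4 libraries, without control A and without control B. MERVL-int at 3.20 and MT2_Mm at 2.97 stand above all other families, and the L1 median moves from 0.48 to -0.09 with the control left out.

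The genes raised here that could be tested were also raised by the stably integrated, doxycycline-induced transgene. Most had far larger folds there, though starting levels also differed between the systems. In the unsorted line 5525 of 16229 genes tested were called higher (34.0%) and 5051 lower (31.1%). All 312 of the 319 genes that could be tested there were among the higher ones. Their median log2 fold change was 8.28 there, against 2.85 for the 319 here. The libraries of the systems are separate but differ in read length and layout (50 bp single-end against 125 bp paired-end). They also differ in how the transgene was delivered, in its HA tag and in the cells, drug-selected reporter clones in the unsorted system. None of these can be told apart from the system itself. The difference of the effects was tested as an interaction in a fit of all 8 libraries, with 14.1% of 17152 genes called lower in the transient system and 22.7% higher, and a median difference of 0.17. Of 318 raised genes in that fit, 286 had a smaller transient effect, 7 a larger one and 25 did not pass. Their median difference was -5.04 on the log2 scale. All 51 raised repeat families had a smaller transient effect, against 66.2% of all 1303 families tested, and 18 of these (1.38%) had a larger one. In the unsorted line itself 86.3% of repeat families were called higher and 1.34% lower.

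Among the raised genes named here, Zscan4d and Gm8300 shared the smallest adjusted p of the interaction with Gm5039 and Tmem92, and the gap was wider for others, such as Tdpoz4 at -8.13 and Zscan4b at -7.32. Zscan4d rose by a log2 fold change of 3.60 here and 10.75 with doxycycline, a difference of -6.98 in the joint fit, and Gm8300 by 3.03 and 10.18, a difference of -6.97. Both started higher here. Zscan4d stood at 32.3 and 31.7 CPM in the transient controls and at 1.96 and 2.75 CPM without doxycycline. Gm8300 stood at 25.6 and 21.2 against 3.07 and 3.53 CPM. MERVL-int changed by 3.20 and 8.48 and MT2_Mm by 2.97 and 7.6. MERVL-int started at 247 and 274 against 218 and 237 CPM, and MT2_Mm at 48.8 and 43.7 against 85.2 and 99.0 CPM. The part of starting level in these differences was not tested. A few genes tested in both systems rose less with doxycycline, and those that passed the interaction test are processed pseudogenes. Gm12183 rose by 2.18 here and by 1.56 with doxycycline, Gm5939 by 3.02 and 2.43, Gm5903 by 1.5 and 0.66 and Kat2b-ps by 1.79 and 1.08, and for each the difference passed the interaction test. Without mDux B the transient call of Kat2b-ps was lost (adjusted p = 0.0836). Cspg4 had 3 and 0 reads with doxycycline and 4 and 4 without, so it was not tested there, and its interaction was 7.41 ± 1.20 (adjusted p = 0.000359). Gm5117 changed by 3.50 and 4.01, a difference of -0.33 that did not pass (adjusted p = 0.301).

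**Figure D5:**
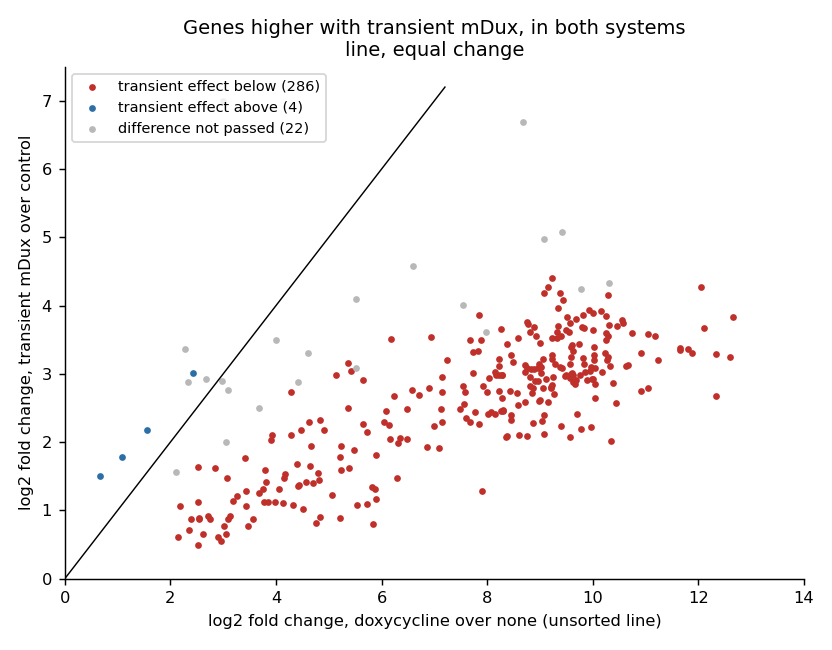
Log2 fold change with transient mDux over control against that with doxycycline over none in the unsorted line, for the 312 raised genes tested in both; colours give the interaction test and the line marks equal change. Most genes lie far below the line, with Zscan4d at 10.75 and 3.60, and the 4 blue points above it are Gm12183, Gm5939, Gm5903 and Kat2b-ps.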

How the data were processed

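The authors deposited raw read counts per Ensembl gene and repeat family, per the file headers. Novoalign 2.8, DESeq2 and the build mm10 are named with no role in the submitters' processing notes. The counting tool, strand setting and treatment of reads with several matches are stated in none of the sources used here. The authors' deposited table also holds log2 fold changes and adjusted p-values, used only to count 286 genes higher and 3 lower at an adjusted p under 0.05, of which 278 are among the 319 genes called here. A length in bases per row was also deposited by the authors. The 16 columns of rlog values and of the sorted libraries were not used.

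Columns are numbered from 0 and titles from 1, which links columns to groups and not to single samples. Counts were tested with edgeR 4.0.16 (R 4.3.3), with glmQLFit in robust mode and glmQLFTest on the 4 libraries. Rows were kept by filterByExpr (minimum count 10, minimum total 15). Library size was the sum of gene rows with a TMM factor over genes. P-values were adjusted by Benjamini-Hochberg over genes and over repeat families apart, at 0.05. Standard errors were the size of the log2 fold change over the square root of F. The biological coefficient of variation was 11.9%. Floors of 3 reads cover counting error only. Total counted reads were 17914954 to 21988401 per library.

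DESeq2 1.42.0, other scalings, filters, adjustments, a replicate block, the left-out libraries and a fit of 8 libraries were tried as alternatives. The gene lists, members and motifs were chosen with earlier results of these data known. Named features are the 25 largest changes at 5 CPM or more, the 15 highest raised genes, up to 4 called members per list with 7 fixed genes, whatever fell, the 15 repeat families of smallest adjusted p and 5 with most reads, the genes of smallest interaction p or smaller doxycycline effect, and 3 genes per biotype. Others are said to be chosen after the data were seen, or illustrate a list or a run of neighbours.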

Additional observations from a re-analysis of the deposited data

Results flagged for a closer look

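The transient effect differed from the doxycycline effect by the interaction test for many genes: it was below it for 2415 genes and above it for 3892 genes of 17152 tested. Among the raised genes with the smallest adjusted p in that test, the transient minus doxycycline difference was -6.98 for Zscan4d, -6.97 for Gm8300, -6.80 for Gm5662, -6.78 for Tmem92, -6.65 for Gm2022, -6.39 for Spesp1, -6.16 for Gm5039, -5.95 for Fam124a, -5.93 for Usp17lb and -5.64 for Gm13119, on the log2 scale. Among raised genes with a smaller doxycycline effect, 4 passed that test with a positive difference. It was 1.03 for Gm5903, 0.90 for Kat2b-ps, 0.80 for Gm12183 and 0.78 for Gm5939. A positive difference that did not pass was found for Gm11525 (3.96), Gm12475 (1.25), Slc19a3 (0.72) and Gm10827 (0.44). The part of read length, library layout, cell line, HA tag, delivery of the transgene and starting level in these differences was not tested.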

How the results depend on the processing

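All 319 genes called higher kept a positive change without control A and without control B. This was largely fixed in advance, since both mDux libraries of each gene were above both controls. With 1 library left out, 247 to 1185 genes were called higher and 0 to 1404 lower, and 16 to 555 repeat families higher and 0 to 35 lower. In a fit with 1 control library the spread comes from the mDux pair alone, and the lone library is assumed to vary like it. The count of genes called higher stayed within 1.5 times under other scalings, filters, tests and adjustments. Genes called lower numbered 91 with no filter, 2 with DESeq2, 40 with the replicate block, 14 with the crossed block and 16 in the fit with the unsorted libraries. Repeat families called higher numbered 164, 55, 115, 149 and 117 under the same settings and 29 at a minimum of 2-fold, and DESeq2 called 1 family lower. The count of families higher was 37 with DESeq2 size factors and 36 with at least 1 CPM in 2 libraries, against 51 in the main fit. It was 55 with gene totals only and 35 with 1 adjustment over genes and repeat families together. The cause was not tested. The column numbers do not show a pairing: the deviations of same-numbered libraries from their group means correlated at -0.23, so a crossed block was added after seeing the data, and it called 400 genes higher against 389 with the replicate block. The replicate block changed the call of none of the 120 named features. Features that did not pass changed sign in 4 cases: Trim28 (-0.09) and Pou5f1 (-0.07) without control A, and Nanog without control B (-0.02) and without mDux B (-0.01). Trim28 was at 0.29 and Pou5f1 at 0.25 without control B, and Nanog at 0.05 without control A. With 1 transient library left out, the interaction called 2659 to 5106 genes above and 2068 to 2947 below the doxycycline effect, and the block gave 3116 and 2105. With 2 libraries a group, changes under about 1 on the log2 scale were at the limit of what passed.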

Other observations

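Raised genes outside the lists, picked after their values were seen and not tested as a group, include receptors of neurotransmitters. Chrm3, a muscarinic receptor gene, had a mean of 1.46 CPM in the controls and 12.5 CPM with mDux, Tacr3, a tachykinin receptor gene, 1.12 and 9.41 CPM, and Drd3, a dopamine receptor gene, 0.0562 and 1.47 CPM. Cacna1s, a calcium channel gene known from skeletal muscle, went from 10.2 to 89.7 CPM. The paired heat-shock genes Hspa1a and Hspa1b had log2 fold changes of 2.02 and 1.29. All of these genes but Hspa1b were called whichever library was left out, and Hspa1b was called in 3 of the 4 cases.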
